A study of Mus musculus with 20 samples.

Results

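The genes described here encode the amyloid precursor protein, the enzymes that cut it, the Alzheimer risk lipoproteins and tau. They are App, Bace1, Psen2, Ncstn, Aph1a, Adam10, Apoe, Clu and Mapt, which were selected by symbol, with earlier results of these data known. All 9 symbols were found among the 48709 genes of the deposited table, and all 9 passed the filter on low counts. Total RNA of the right hippocampus of adult C57BL/6 mice (the strain in the labels, C57BL/6J in the methods) was sequenced after depletion of ribosomal RNA, with 5 samples in each of 4 groups: males and females after nPM, and male and female controls. The dams of nPM mice inhaled nPM, nano-sized particulate matter of traffic-related urban air, in sessions of 5 h, 3 days a week, from gestational day 2 until birth, and the dams of controls inhaled filtered air. The labels give the concentration as 300 mg/m3, whereas the methods give the same number in μg/m3. All mice carried the same background strain and no engineered allele is named. Females were 17.71 to 18.29 weeks old by the labels and males 18.57 to 19.14 weeks, so that age and sex cannot be told apart. The methods give 5 litters per exposure, fewer than the 10 samples of an exposure, and the labels do not give the litter of a sample, so that p-values measure the spread between samples of which some shared a litter. The methods also describe injections of EdU, a label of dividing cells, in male mice. They add that every animal was injected because the sample was small, so that it is not clear whether females were.

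App is a transmembrane protein that is cut along alternative routes. In the amyloidogenic route the beta-secretase Bace1 cuts first, and the gamma-secretase complex, whose catalytic subunit is a presenilin, then releases the amyloid beta peptide. In the other route Adam10, the main alpha-secretase of neurons, cuts within the amyloid beta sequence and releases a soluble ectodomain. Ncstn (nicastrin) and Aph1a are structural subunits of gamma-secretase, and Psen2 is one of its presenilins. Apoe and Clu (clusterin, or apolipoprotein J) are secreted lipoproteins made in the brain largely by astrocytes and carry common risk variants for Alzheimer disease in humans. Mapt encodes tau, the axonal microtubule-binding protein that forms neurofibrillary tangles.

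Upstream sequences are shown for App, the substrate, and for Apoe and Adam10, the members whose levels differed between the sexes (described later). RefSeq promoter windows of the GRCm38.p6 build, the patched release of mm10, matched 6 of the 9 members by symbol: App, Psen2, Ncstn, Aph1a, Adam10 and Apoe. The printed windows are the 250 bases before a RefSeq start, given 5′ to 3′ on the strand of the gene. They lie at chr16:85173708-85173957 on the minus strand for App, at chr9:70678732-70678981 on the plus strand for Adam10 and at chr7:19699189-19699438 on the minus strand for Apoe. Capitals mark the GC box letters GGGCGG or their reverse complement CCGCCC.
App: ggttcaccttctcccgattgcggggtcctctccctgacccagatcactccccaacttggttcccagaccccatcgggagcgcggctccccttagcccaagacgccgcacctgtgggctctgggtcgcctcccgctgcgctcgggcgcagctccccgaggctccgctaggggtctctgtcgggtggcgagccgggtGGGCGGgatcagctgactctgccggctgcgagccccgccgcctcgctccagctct
Adam10: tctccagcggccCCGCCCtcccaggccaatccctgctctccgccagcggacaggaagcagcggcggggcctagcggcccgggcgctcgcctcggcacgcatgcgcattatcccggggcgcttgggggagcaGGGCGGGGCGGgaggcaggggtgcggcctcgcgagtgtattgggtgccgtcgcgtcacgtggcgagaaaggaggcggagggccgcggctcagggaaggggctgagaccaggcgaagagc
Apoe: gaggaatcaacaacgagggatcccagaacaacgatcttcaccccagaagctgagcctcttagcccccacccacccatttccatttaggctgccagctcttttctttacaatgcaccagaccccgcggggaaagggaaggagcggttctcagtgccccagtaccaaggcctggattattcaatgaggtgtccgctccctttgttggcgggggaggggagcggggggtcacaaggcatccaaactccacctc
The Adam10 window held 3 GC boxes, of which 2 share a base, and had a GC content of 74.0%. App had 1 GC box and a GC content of 70.8%, whereas the Apoe window had 0 GC boxes and a GC content of 57.2%. Of all 32851 RefSeq windows of this length, 32.7% held a GC box on either strand and the median GC content was 52.4%. The CRE core TGACGTCA and the TATA box letters TATAAA, or TTTATA on the other strand, were found in 0 of the 3 printed windows and in 1.55% and 12.4% of all windows. RefSeq lists 2 further Apoe windows, 567 and 790 bases further into the gene, and the nearer one held 2 overlapping TATA box matches. A match is a stretch of letters and not a measured binding site.

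The members sat on 7 chromosomes of mm10, and their spans overlapped other annotated genes to different degrees. App lay at chr16:84954440-85173707, Bace1 at chr9:45838580-45864399, Adam10 at chr9:70678997-70780229 and Mapt at chr11:104231390-104332090. The gamma-secretase genes lay at chr1:180227004-180263438 (Psen2), chr1:172066013-172082795 (Ncstn) and chr3:95893969-95898288 (Aph1a). Apoe lay at chr7:19696109-19699188 and Clu at chr14:65968483-65981548. Apoe, Clu and Adam10 overlapped no other annotated gene. Protein-coding genes on the opposite strand overlapped Bace1 (Rnf214, 975 bases), Ncstn (Copa, 267 bases) and Aph1a (Car14, 521 bases). The strand setting of the read counting is not given in the sources used here, so reads in these stretches cannot be assigned with certainty.

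**Figure D1:**
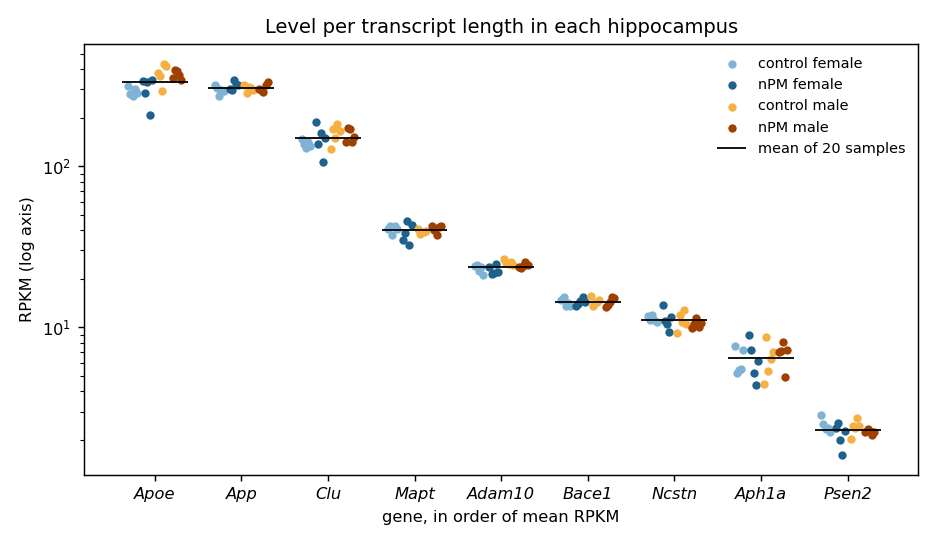
Level per transcript length (RPKM, log axis) of the 9 genes in each of the 20 hippocampi, colored by group, with the mean over all samples as a line. Apoe and App overlapped at the top, and Psen2 was lowest in all 20 samples.

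Levels per transcript length covered a wide range. Apoe had the highest mean, 334 ± 55.6 RPKM (reads per kilobase of transcript per 1000000 counted reads; SD, n = 20), followed by App at 306 ± 17.3 RPKM. These did not separate: Apoe exceeded App in 13 of 20 samples, and their ranges of 209 to 433 and 272 to 343 RPKM overlapped. Clu followed at 150 ± 20.5 RPKM and Mapt at 39.95 ± 3.03 RPKM. Of the cleaving enzymes, Adam10 (23.8 ± 1.42 RPKM) was above Bace1 (14.4 ± 0.73 RPKM) in all 20 samples. The gamma-secretase genes were lowest, at 11.03 ± 1.09 RPKM for Ncstn, 6.46 ± 1.36 RPKM for Aph1a and 2.32 ± 0.266 RPKM for Psen2. Bace1 was above Ncstn in 19 of 20 samples, with overlapping ranges, and each of the other neighbours in this order kept its place in all 20 samples without overlap. All 9 places were the same when RPKM was computed on TMM library sizes. Psen2 stood at the 42.6th percentile of the 19797 genes that passed the filter, whereas Apoe and App were both at the 99.7th percentile.

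Members differed in how steady they were among samples of a group. Within-group SDs on the log2 CPM scale (CPM, counts per 1000000, on TMM library sizes) were 0.082 for Adam10, 0.089 for App, 0.095 for Bace1 and 0.11 for Mapt. The median over all 19797 genes was 0.26, and these members stood at the 2.12th, 3.48th, 4.98th and 10.8th percentiles. Ncstn (0.13), Psen2 (0.15), Apoe (0.18) and Clu (0.19) were intermediate. Aph1a was the most variable member, with an SD of 0.32 at the 58.6th percentile. The library labelled nPM female 4 held the lowest value of Psen2, Aph1a, Apoe, Clu and Mapt.

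Total counts per sample were between 19092067 and 38663408, and members received from 133 counts (Psen2, lowest sample) to 36891 (App, highest sample). Levels of Xist and Ddx3y matched the labelled sex in all 20 samples. The neuronal markers Snap25, Syt1, Rbfox3, Nefl, Slc17a7 and Camk2a summed to 4552 to 6310 CPM and the hippocampal field markers to 398 to 566 CPM. Choroid plexus markers, the genes of the epithelium that makes cerebrospinal fluid, summed to 32.8 to 8361 CPM, so that samples differed widely in this tissue. The libraries control male 1 and nPM female 4 stood apart in GC. Slopes on the GC content of genes were taken from deviations of log2 CPM from the mean of each gene over the 20 samples. They were −0.232 and −0.317 per 10 percentage points in these 2 libraries, against −0.07 to 0.20 in the others. In bulk tissue, fewer cells of a type and less RNA per cell cannot be told apart.

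**Figure D2:**
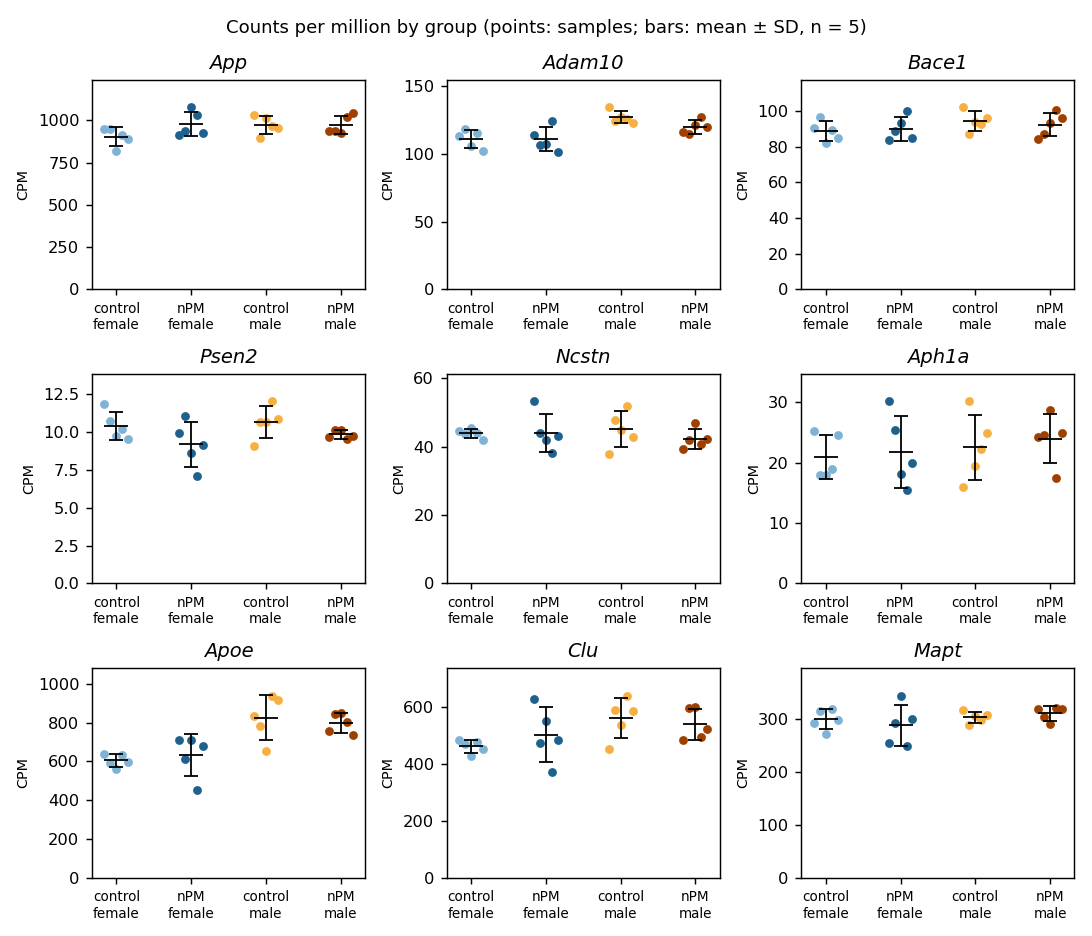
CPM of the 9 genes in the 4 groups; points are samples and bars are the mean ± SD (n = 5). Control and nPM samples overlapped for every gene in both sexes, and the share of all genes with such overlap was not determined. Apoe lay higher in males.

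The first comparison asked whether gestational nPM exposure left a difference in these genes in the adult hippocampus, with both sexes in 1 fit and sex as a covariate. None of the 9 members passed a p of 0.005, the threshold of the study, in limma-voom, against 28 of 19797 genes (0.141%). The edgeR quasi-likelihood test and the DESeq2 Wald test also gave 0 of 9. At a p of 0.05, 1 of 9 members passed (Psen2), against 2.1% of genes. The smallest adjusted p among members was 0.9998, and 0 of 19797 genes passed an adjusted p of 0.05 while 416 had p under 0.05. The median log2 fold change of the members was −0.01, and that of all genes was −0.0059. The 95% confidence intervals of all 9 members lay between folds of 0.815 and 1.25.

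The substrate App was at 948, 946, 818, 915 and 892 CPM in control females and at 915, 938, 1078, 1033 and 927 CPM in nPM females. Control males had 1029, 895, 1016, 968 and 956 CPM, and nPM males had 938, 937, 927, 1020 and 1044 CPM. The groups overlapped in both sexes, with 2 nPM females above all control females. The log2 fold change was 0.05 with both sexes (SE 0.045, 95% confidence interval −0.04 to 0.14, limma-voom p = 0.272, n = 10 per exposure). In females it was 0.13 (interval −0.04 to 0.29, exact permutation p = 0.135) and in males −0.01 (interval −0.14 to 0.12), where the exact p was 1. The interaction of nPM and sex, which tests the difference between these, gave an adjusted p = 0.987 for App in limma-voom.

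Psen2, the presenilin of the list, was the member with the smallest p. It measured 11.9, 10.7, 9.72, 10.2 and 9.54 CPM in control females and 9.97, 11.1, 8.64, 7.11 and 9.18 CPM in nPM females. In males it measured 9.12, 10.7, 10.7, 12.05 and 10.9 CPM in controls and 9.70, 10.2, 10.1, 9.56 and 9.73 CPM after nPM. All 5 nPM males and 4 of 5 nPM females were below the median of their controls, but the groups overlapped in both sexes. The log2 fold change was −0.16 (SE 0.067, interval −0.30 to −0.02, limma-voom p = 0.0282, adjusted p = 0.9998, n = 10 per exposure), which is a fold of 0.897. An exact two-sided permutation test with exposure permuted within sex gave p = 0.0345 (n = 5 per group and sex), not adjusted over the 9 members, and the exact tests within a sex gave p = 0.135 in males and p = 0.159 in females. The smallest p an exact test of 5 against 5 samples allows is 0.00794. Leaving out control male 4 or control female 1, or dropping the filter on low counts, moved the limma-voom p above 0.05. Over all fits with a sample left out, the log2 fold change was −0.18 to −0.13 and the limma-voom p 0.0099 to 0.060. Over 12 alternative processing settings it was −0.16 to −0.13, with p of 0.0070 to 0.051 by the test of each setting. Psen2 also fell with the length slope of the libraries, as described later.

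The other gamma-secretase subunits had small or scattered differences. Ncstn differed by −0.05 with both sexes (interval −0.17 to 0.07, limma-voom p = 0.368, n = 10 per exposure). Control females lay within 41.9 to 45.3 CPM, and nPM females spread from 38.01 to 53.2 CPM around them. For Aph1a the interval was the widest of the members, from −0.19 to 0.33 around 0.07 (exact permutation p = 0.623). Its values ran from 15.4 to 30.1 CPM among nPM females and from 15.99 to 30.1 CPM among control males. The ratio of Psen2 to Ncstn, which does not depend on library scaling, had a mean log2 value of −2.08 ± 0.118 in female controls and −2.27 ± 0.178 after nPM (SD, n = 5). In males it was −2.07 ± 0.066 in controls and −2.10 ± 0.075 after nPM. The nPM minus control difference was −0.10 over both sexes (exact permutation p = 0.0753, adjusted p = 0.524 over 12 ratio tests).

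With the sexes combined, both enzymes that make the first cut were nearly level between exposures. Bace1 differed by −0.01 (interval −0.11 to 0.08, exact permutation p = 0.861), with a range of 82.3 to 102 CPM over all 20 samples. Adam10 differed by −0.05 (interval −0.14 to 0.04, exact permutation p = 0.235). In males, Adam10 measured 135, 125, 127, 126 and 123 CPM in controls and 116, 115, 121, 128 and 120 CPM after nPM. Of the nPM males, 4 of 5 were below every control male and the fifth was above 4 of them. The exact permutation test gave p = 0.0476 for Adam10 in males (n = 5 per group). Of the 27 exact tests of single members, this and that of Psen2 with both sexes were the 2 under 0.05, with no adjustment. The limma-voom estimate was −0.09 (interval −0.21 to 0.02, adjusted p = 0.963), and the interaction gave an adjusted p = 0.987. The Bace1 to Adam10 ratio differed by 0.04 over both sexes (exact permutation p = 0.206, adjusted p = 0.618).

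The lipoproteins and tau showed little difference between exposures when the sexes were combined. Apoe had a log2 fold change of −0.0023 (interval −0.16 to 0.15, exact permutation p = 0.969), Clu of 0.02 (interval −0.14 to 0.18, p = 0.804) and Mapt of −0.02 (interval −0.13 to 0.09, p = 0.771). The Clu to Apoe ratio differed by 0.02 (exact permutation p = 0.773). Apoe in nPM females was 709, 610, 711, 455 and 682 CPM against 639, 593, 560, 635 and 599 CPM in control females, so that 3 nPM females were above all controls and 1 was below. The low library was nPM female 4, which is one of those that stood apart in GC. Without it, Apoe in females differed by 0.17 and Clu by 0.21, both past a p of 0.05 but not of 0.005 in limma-voom, against 0.06 and 0.11 with it. These were the highest values of the fits in females with a sample left out. The lowest were 0.011 for Apoe and 0.020 for Clu, and the largest limma-voom p values were 0.93 and 0.85. Mapt was steady in males, at 289 to 317 CPM in controls and 290 to 322 CPM after nPM, and ranged from 250 to 345 CPM in nPM females.

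**Figure D3:**
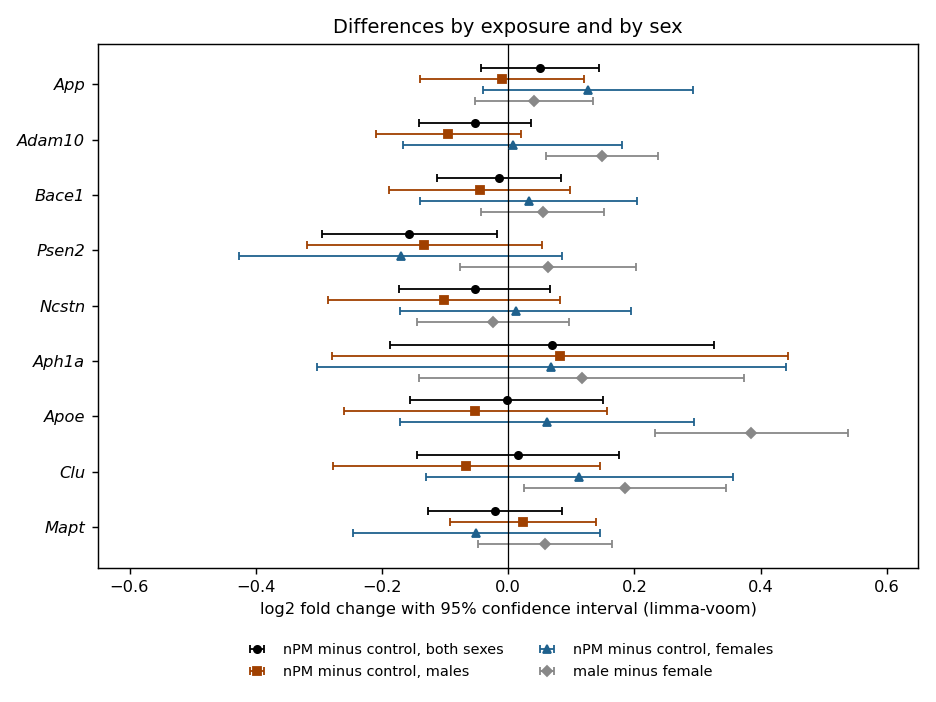
Log2 fold changes of the 9 genes with 95% confidence intervals from limma-voom: nPM minus control (both sexes, males, females) and male minus female. The intervals of Psen2 with both sexes and of Apoe, Adam10 and Clu between the sexes did not include 0.

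The members were then read within each sex. In limma-voom, 0 of 9 passed a p of 0.005 in males, where 41 of 19797 genes did (0.207%), and 0 of 9 in females, where 18 did (0.0909%). Counts at a p of 0.05 were also 0 of 9 in either sex, against 4.28% of all genes in males and 1.99% in females, and edgeR and DESeq2 gave 0 at a p of 0.005. The intervals of the members covered folds from 0.802 to 1.36 in males and from 0.744 to 1.36 in females. Point estimates were below 0 for 7 of 9 members in males and above 0 for 7 of 9 in females. The share of all genes on each side of 0 was not determined, and their medians were −0.0013 in males and 0.0038 in females. Several of the member signs changed with the processing or with a sample left out, as given below. For the interaction of nPM and sex, 0 of 9 members passed a p of 0.005 or 0.05 in limma-voom, and 0 passed 0.005 by edgeR or DESeq2, against 43 genes (0.217%) in limma-voom, with App having the smallest member p. No difference between the sexes in the response of these genes was therefore detectable with 5 samples per group, and the intervals of the interaction reached folds of 0.707 and 1.47.

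The wider pathway was read from 7 lists with 83 genes, of which 81 passed the filter (Apbb3 and Epha1 did not). None of the 81 passed a p of 0.005 in limma-voom for nPM, whether over both sexes, within a sex or for the interaction, and edgeR and DESeq2 gave 0 as well. At a p of 0.05 in limma-voom, the count was 0 of 81 with both sexes, 1 in males, 0 in females and 0 for the interaction, against 2.1%, 4.28%, 1.99% and 3.79% of all genes. That gene was Apbb1 (Fe65), an adaptor that binds the App cytoplasmic tail, at −0.17 in males (adjusted p = 0.963). Leaving out a single library brought 1 gene past a p of 0.005 in females (Cst3, without nPM female 4) and 1 in males (Apbb1, without control male 2, or Mef2c, without nPM male 4). The median log2 fold change of the 81 genes with both sexes was 0.0038, and the range was −0.43 (Bace2) to 0.20. Among the 4 further gamma-secretase genes, the smallest p values were those of Aph1c in females and Aph1b in males, with log2 fold changes of 0.14 and 0.07. Bace2, a homolog of Bace1, had p = 0.0660 with both sexes (n = 10 per exposure), and Adam17, an alternative alpha-secretase, differed by 0.18 in females. Of the genes that degrade or take up amyloid peptide, Cst3 (cystatin C) differed by 0.15 with both sexes and Ece2 by −0.19 in females. Abca1, the transporter that lipidates Apoe, differed by 0.18 in females, and the Apoe receptor Lrp8 by 0.10 in males. Of the tau group, Map4 differed by 0.12 and Stub1 by −0.12 in males. Of the further risk genes, Mef2c differed by −0.61 and Zcwpw1 by 0.27 in males, and of the sorting genes Itm2b differed by 0.15 in females, none of them past a p of 0.05. These values changed with single samples. Of the 14 named nPM results of the lists, 11 passed a p of 0.05 with some sample left out, and 2 passed 0.005. Apbb1 in males is among the 11 and had already passed 0.05 with all samples. The 14 were picked for a small p and counted by their smallest p over such fits, so the counts are not evidence of a difference. With a sample left out, Bace2 ranged from −0.50 to −0.25, Cst3 from 0.10 (without nPM female 3) to 0.25 (without nPM female 4), Ece2 from −0.25 to −0.12 (without control female 2 or 3) and Lrp8 from 0.038 to 0.14 (without nPM male 1 or 2).

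The same fit gives the difference between males and females with exposure as a covariate. This contrast covered much of the transcriptome: 6147 of 19797 genes passed a p of 0.005 (31.1%), and 8005 passed an adjusted p of 0.05 (40.4%). Of all 19797 genes, 2758 (13.9%) passed 0.005 with the higher level in males and 3389 with the lower. Of the members, 2 of 9 passed a p of 0.005 and an adjusted p of 0.05, Apoe and Adam10, both higher in males. All genes passed at 31.1% and 40.4%, and whether the share of the 9 members differs from these was not tested. The median over the members was 0.06 on the log2 scale and that over all genes 0.02.

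Apoe was 835, 785, 654, 940 and 918 CPM in control males and 755, 842, 850, 805 and 736 CPM in nPM males. Of the 10 males, 9 were above all 10 females, and control male 3 lay within the female range. The log2 difference was 0.38 (SE 0.073, interval 0.23 to 0.54, limma-voom p = 3.36e-05, adjusted p = 0.00034, n = 10 per sex), a fold of 1.31. Adam10 was higher in males by 0.15 (SE 0.043, interval 0.06 to 0.24, p = 0.0023, adjusted p = 0.0087, n = 10 per sex), a fold of 1.11, with 5 of 10 males above all females. Clu, the other lipoprotein, had a difference of 0.18 (interval 0.03 to 0.34, p = 0.0254, adjusted p = 0.0599, n = 10 per sex) and did not pass, but it passed a p of 0.005 with sample quality weights, with GC content and length corrected and without nPM female 1. For 0 of 9 members were the sexes free of overlap, against 5.02% of all genes. For the other 6 members, the difference was between −0.02 (Ncstn, adjusted p = 0.767) and 0.12 (Aph1a, adjusted p = 0.479).

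Several measures moved with sex in the same samples. Age did not overlap between the sexes. With age as a covariate, Apoe differed by −0.03 (p = 0.894, n = 10 per sex) and 84 genes in all passed a p of 0.005, so that age and sex cannot be told apart. Adam10 with protein-coding genes alone in the fit differed by 0.10, and here, with a minimum count of 50 and without nPM female 5 it no longer passed a p of 0.005. The slope on gene length was taken from the same deviations of log2 CPM as the GC slope, so that it is relative to the other samples. It was 0.0064 to 0.139 per doubling of length in females and −0.099 to 0.0014 in males, with no overlap. With GC content and length corrected, Apoe differed by 0.37 and Adam10 by 0.13. Without the libraries control male 1 and nPM female 4, Apoe differed by 0.31 and Adam10 by 0.14, all 4 past a p of 0.005. Of 8 astrocyte markers, 4 were higher in males by limma-voom at a p of 0.005 with a median difference of 0.18, while their summed level was 5807 to 6848 CPM in females and 5263 to 6679 CPM in males. Of 7 microglia markers, 3 were higher in males, at 208 to 325 CPM in females and 272 to 323 CPM in males. Of 6 endothelial markers, 4 were lower in males, as were 3389 of all 19797 genes, with a median difference of −0.30. Their sums did not overlap, at 135 to 198 CPM in females and 110.2 to 131 CPM in males. Among single genes, the sexes did not overlap for 5.02%. Of 6 neuronal markers, 2 were lower in males, with a median of 0.02 and sums of 4769 to 6310 CPM in females and 4552 to 6047 CPM in males. No oligodendrocyte, interneuron, meningeal fibroblast, hippocampal field or blood marker passed a p of 0.005. Their medians were 0.22, 0.15, 0.32, −0.061 and 1.63, and all 3 tested blood markers passed a p of 0.05. An adjusted p of 0.05 was passed by 6 of 8 astrocyte, 4 of 7 microglia, 4 of 6 endothelial and 3 of 6 neuronal markers. It was also passed by 1 of 6 oligodendrocyte and 1 of 6 interneuron markers, by 0 of the other lists and by 40.4% of all genes. Choroid plexus markers had a median difference of 1.23, with 0 of 8 past a p of 0.005 or 0.05 in limma-voom. Their sums ranged from 46.7 to 8361 CPM in females and from 32.8 to 7418 CPM in males, and none was at 0 in every sample. With the choroid plexus level as a covariate, Apoe differed by 0.33 and again passed. The part of the cell type makeup in these differences was not tested otherwise.

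**Figure D4:**
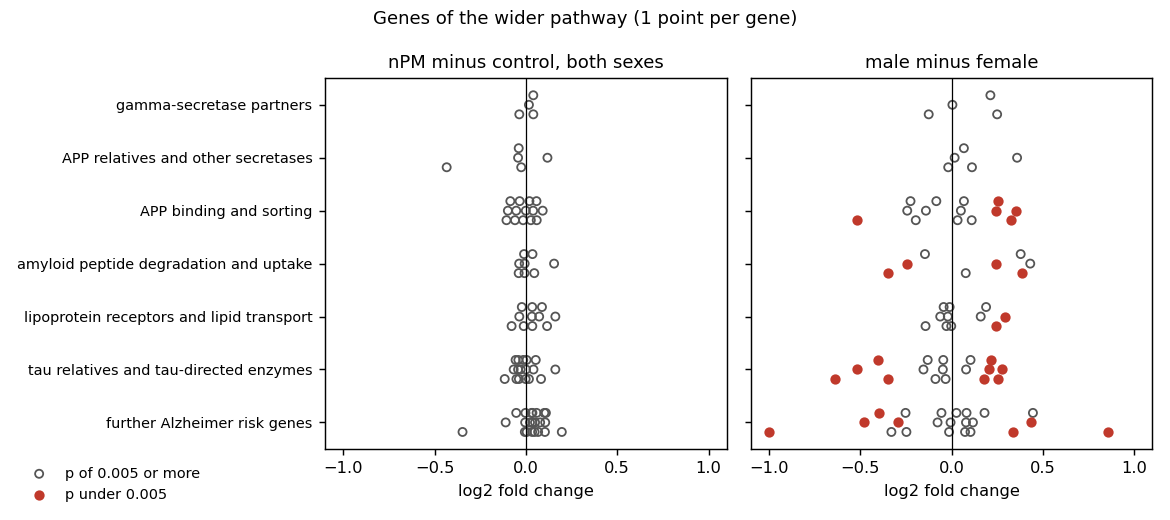
Log2 fold changes of the 81 tested genes of the 7 wider lists, 1 point per gene, for nPM minus control with both sexes and for male minus female; filled points have p under 0.005 in limma-voom. No point is filled for nPM, and 27 are filled for sex, on both sides of 0.

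Of the 81 genes of the wider lists, 27 passed a p of 0.005 between the sexes (33.3%, near the 31.1% of all genes), 16 higher and 11 lower in males, with a median of 0.02 as for all genes. Neither the 4 gamma-secretase genes nor the 5 App relatives and other secretases held a gene past a p of 0.005. At an adjusted p of 0.05, 2 of these 4 and 1 of these 5 passed. Of all 81 genes 38 did, beside 40.4% of all genes tested. The genes named next passed a p of 0.005. Of 14 App binding and sorting genes, 4 were higher in males (Itm2c 0.35, Vps35 0.33, Apbb1 0.25 and Itm2b 0.24) and Gga3, a sorting adaptor of Bace1, was lower (−0.52). Vps35 is the core of the retromer that returns cargo from endosomes. Of 8 genes for peptide degradation and uptake, the neprilysin gene Mme (0.38) and the cathepsin Ctsb (0.24) were higher, and the uptake receptor Lrp1 (−0.35) and the protease Ece1 (−0.24) were lower. Of 11 lipoprotein genes, Vldlr (0.29), a receptor of Apoe, and Lrpap1 (0.24), a chaperone of such receptors, were higher. Of 17 tau relatives and tau-directed enzymes, 5 were higher (Ppp2r2b 0.27, Ppp2ca 0.26, Cdk5r1 0.21, Stub1 0.21 and Cdk5 0.18) and 4 were lower (Map1a −0.64, Mark4 −0.52, Mark2 −0.40 and Bag3 −0.35). Cdk5 and its activator Cdk5r1 phosphorylate tau, as do Mark2 and Mark4, and Ppp2ca with Ppp2r2b removes phosphate from it. Of 22 further risk genes, Cass4 (0.86), Tmem106b (0.43) and Tyrobp (0.34) were higher, and Rin3 (−0.997), Slc24a4 (−0.48), Ptk2b (−0.40) and Inpp5d (−0.29) were lower. With age as a covariate, 0 of the 81 genes passed a p of 0.005, and 22 to 30 passed it with a sample left out. Of the 20 fits with a sample left out, Bag3 passed in 5, Cass4 in 7, Mme in 8 and Tyrobp in 12. Apbb1 passed in 16, Inpp5d in 18, Stub1 in 19, and the other genes named here in all 20.

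**Figure D5:**
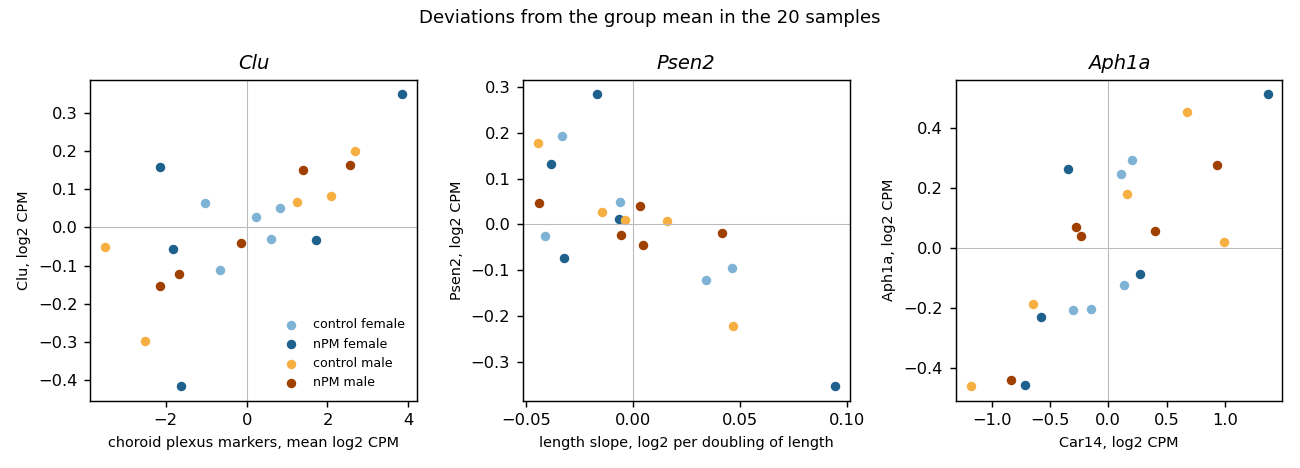
Deviations from the group mean in the 20 samples, colored by group: Clu against the choroid plexus markers, Psen2 against the length slope and Aph1a against Car14 (all in log2 units). Clu and Aph1a rose with the x axis (r = 0.69 and 0.78), and Psen2 fell with it (r = −0.76).

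Samples of the same group also differed, and some members moved with measures of the library. Deviations of each member from its group means were related to 3 such measures (choroid plexus level, GC slope and length slope), 27 relations in all over 20 samples, with 100000 permutations within groups. Clu rose with the choroid plexus level (Pearson r = 0.69, permutation p = 0.00724, adjusted p = 0.0342, Spearman rho = 0.74, permutation p = 0.00398, adjusted p = 0.0269, n = 20). Without the 2 samples farthest from the median, control male 3 and nPM female 1, r was 0.65. It was 0.54 within females and 0.87 within males. Ncstn also rose with it by Pearson (r = 0.70, permutation p = 0.0076, adjusted p = 0.0342), less so by rank (rho = 0.54, permutation p = 0.0434, adjusted p = 0.146), and r was 0.70 without those samples. App had the opposite sign (r = −0.56, permutation p = 0.0213, adjusted p = 0.0719, rho = −0.55, permutation p = 0.0256, adjusted p = 0.121) and did not pass, with r = −0.49 without those samples. Of these, Clu also fell with the length slope (r = −0.79, permutation p = 0.0002, adjusted p = 0.0054, rho = −0.68, permutation p = 0.00117, adjusted p = 0.0161). Psen2 (r = −0.76, permutation p = 0.00107, adjusted p = 0.0144, rho = −0.70, permutation p = 0.00198, adjusted p = 0.0178) and Apoe (r = −0.72, permutation p = 0.00662, adjusted p = 0.0342, rho = −0.69, permutation p = 0.00119, adjusted p = 0.0161) fell with it too. Without control male 1 and nPM female 4, the farthest samples here, r was −0.60 for Clu, −0.55 for Psen2 and −0.60 for Apoe. The relation of Clu to the GC slope (r = 0.76, permutation p = 0.00646, adjusted p = 0.0342, rho = 0.50, permutation p = 0.0336, adjusted p = 0.130) fell to r = 0.43 without the same 2 samples and rests in part on them.

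Aph1a moved with the gene that overlaps it on the other strand. Car14, a membrane-bound carbonic anhydrase, measured 5.23 to 23.5 CPM, and the within-group deviations of Aph1a rose with those of Car14 (Pearson r = 0.78, permutation p = 0.00043, adjusted p = 0.00172 over 4 overlapping pairs, Spearman rho = 0.74, permutation p = 0.00126, adjusted p = 0.00504, n = 20). Without control male 1 and nPM female 1, the farthest samples, r was 0.67. Car14 also rose with the choroid plexus level, and Aph1a had the same sign but did not pass an adjusted p of 0.05. For Aph1a, r was 0.61 (permutation p = 0.0185, adjusted p = 0.0712 over the 27 relations, rho = 0.56, permutation p = 0.0268, adjusted p = 0.121, r = 0.52 without the 2 farthest samples), and for Car14, a single relation, r was 0.91 (permutation p = 9.0e-05, rho = 0.89, permutation p = 0.00035, r = 0.89 without the 2 farthest samples). Ncstn and Copa, which share 267 bases, moved in opposite directions (r = −0.50, permutation p = 0.0107, adjusted p = 0.0213, rho = −0.47, permutation p = 0.0388, adjusted p = 0.0776, r = −0.70 without the 2 farthest samples). Bace1 had r = 0.39 with Rnf214 (permutation p = 0.130, adjusted p = 0.174, rho = 0.20, permutation p = 0.437, adjusted p = 0.582, r = 0.046 without the 2 farthest samples). With the antisense gene Gm16536, Bace1 had r = 0.14 (permutation p = 0.616, adjusted p = 0.616, rho = −0.03, permutation p = 0.902, adjusted p = 0.902, r = −0.30 without the 2 farthest samples). Whether reads of one gene were counted for the other was not tested.

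Among themselves, the members formed no single pattern over the 20 samples. Likeness was measured by proportionality, which is 1 for genes that keep a constant ratio and 0 for unrelated genes, on log2 CPM. Of the 36 pairs, 7 were over 0.5, the median was 0.16 and the lowest was App with Ncstn at −0.41. The most alike were App and Bace1, substrate and beta-secretase, at 0.78, then Apoe and Clu at 0.76 and Bace1 and Adam10 at 0.71. Over 15006 protein-coding genes, App was closest to Bace1, Stk25 (0.72) and Add1 (0.69). Bace1 was closest to Akirin2 (0.89), Lmbrd2 (0.84) and App, and Adam10 to Usp9x (0.88), Wac (0.87) and Xpot (0.87). Psen2 was closest to Lrrc41 (0.83), Nmral1 (0.81) and Fahd2a (0.79), Ncstn to genes that included Tpp1 (0.83) and Arfgef2 (0.80), and Aph1a to Abhd14b (0.77), Slc29a1 (0.76) and Syde1 (0.76). Tpp1 encodes a lysosomal peptidase. Apoe was closest to Kdelr2 (0.93), Ppil1 (0.92) and Rps10 (0.92), Clu to Psap (0.94), Surf4 (0.94) and Yipf1 (0.92), and Mapt to Gsk3a (0.87), Tcf25 (0.85) and Klc2 (0.84). Psap encodes a secreted and lysosomal sphingolipid activator, and Gsk3a a kinase of tau. Genes over 0.8 numbered 259 for Apoe, 137 for Clu and 84 for Adam10, against 10 for Mapt, 2 each for Bace1, Psen2 and Ncstn, and 0 for App and Aph1a. These values share the sex difference and the library measures given above.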

How the data were processed

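RNA was extracted from 20 hippocampi, and ribosomal RNA was depleted before library preparation. The authors used HISAT2 for alignment to mm10 and counted reads on genes of Gencode version M11 with featureCounts 1.5.0-p3, and FastQC and Trimmomatic are named in their processing notes. The deposited table holds whole-number counts per gene for each sample, without normalization. A second deposited table pairs each gene with its symbol, length, position and the authors' mean RPKM over the 20 samples, and the latter was used only to check the RPKM computed here, which it equalled for the 9 members. The strand setting and the handling of reads with several alignments are not given in the sources used here.

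TMM factors (edgeR 4.0.16) were between 0.957 and 1.07. The filter filterByExpr with the 4 groups (minimum count 10, minimum total 15) left 19797 genes. limma-voom (limma 3.58.1, R 4.3.3, offset 0.5 counts) with empirical Bayes moderation was fitted on all of them. The fit of exposure with sex as a covariate and the fits within males and within females follow the methods of the study, and the interaction came from a fit of the 4 group means. Thresholds were a p of 0.005 and a Benjamini-Hochberg adjusted p of 0.05 over all genes. Single members and log2 count ratios were tested two-sided by exact permutation, with exposure permuted within sex. RPKM used total counts on genes and the deposited lengths. Total counts were between 19092067 and 38663408, and squared differences between samples of a group averaged 14.1 to 76.7 times counting noise over the 40 pairs within groups, and pairs across groups were not compared.

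The members and gene lists were chosen with earlier results of these data known. Named genes were the members, every gene of the 7 pathway lists with p under 0.005 in any comparison, the 2 genes per list with the smallest p over the nPM comparisons, and the 3 protein-coding genes of highest proportionality to each member, of which 1 is not reported here. Genes overlapping a member and marker genes were named beside them. The same results were computed with DESeq2 1.42.0 (Wald test) and edgeR (quasi-likelihood), with RLE normalization, with no filter or a minimum count of 50, on protein-coding genes, and with age or choroid plexus level as a covariate, sample quality weights, a replicate block, 1 fit of the 4 groups and each sample left out. A correction for GC content and length (lowess, span 0.3), the fits without 2 libraries and the correlations with library measures and overlapping genes were added after the data were seen. Fits were tested on simulated data. Python 3.11.15, numpy 2.4.6, pandas 2.3.3, scipy 1.17.1 and matplotlib 3.10.9 were used for tests, tables and figures.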

Additional observations from a re-analysis of the deposited data

Results flagged for a closer look

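Of 52 groups of 5 samples (the 9 members and 4 ratios in each of 4 groups), 2 held a sample far from the others by Dixon's test, and chance flags about 1 group in 20. The log2 ratio of Aph1a to Ncstn in nPM male 4 was −1.23, against −0.77 to −0.69 in the other nPM males, a gap of 0.865 of the range of the group. The log2 ratio of Clu to Apoe in control female 2 was −0.33, against −0.41 to −0.39 in the other control females, a gap of 0.726 of the range.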

How the results depend on the processing

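For nPM, 0 of 9 members passed a p of 0.005 under any alternative or with any sample left out, with both sexes, within a sex and for the interaction. Between the sexes, 2 of 9 members passed, 1 with a minimum count of 50, 1 with protein-coding genes only 0 with age as a covariate, 3 (Clu added) with sample quality weights and 3 with the GC and length correction, and 1 (without nPM female 5, where Adam10 was lost) to 3 (without nPM female 1, where Clu was added) with a sample left out. Of the 81 list genes, 1 passed in females and 1 for the interaction (Tyrobp) without the 2 libraries that stand apart in GC, 0 to 1 in males and 0 to 1 in females with a sample left out, and 0 between the sexes with age as a covariate. Genes past a p of 0.005 numbered 28 for nPM with both sexes and 15 to 71 under the alternatives, 41 and 34 to 113 in males, 18 and 13 to 75 in females, 43 and 20 to 149 for the interaction, and 6147 and 84 to 6831 between the sexes.

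Signs changed mostly for differences near 0 that had not passed. With age as a covariate, the sex difference became −0.66 (Aph1a), −0.027 (Apoe), −0.040 (Clu), −0.038 (Psen2), 0.28 (Inpp5d), −0.093 (Lrpap1), −0.32 (Mme) and 0.022 (Ptk2b), of which Apoe, Inpp5d, Lrpap1, Mme and Ptk2b had passed a p of 0.005 without it, and the nPM effect in females −0.0016 (Adam10), −0.0016 (Aph1a) and −0.0054 (Ncstn). With protein-coding genes only, App differed by −0.0069 between the sexes and by 0.00031 with nPM in males, and Adam10 by −0.0032 in females. With sample quality weights, values were 0.028 (Apoe, both sexes), −0.047 (Aph1a) and 0.021 (App) in males, −0.058 (Adam10) and −0.011 (Bace1) in females, and −0.18 (Aph1a), 0.012 (Bace1) and −0.048 (Psen2) for the interaction. Without the 2 libraries that stand apart in GC, they were 0.065 (Apoe) and 0.018 (Mapt) with both sexes, −0.022 (Aph1a) and 0.013 (App) in males, −0.042 (Adam10) and −0.011 (Bace1) in females, and −0.17 (Aph1a), 0.010 (Bace1) and −0.060 (Psen2) for the interaction. Apoe with both sexes was 0.00036 by edgeR and 0.0011 with no filter. The GC and length correction gave 0.0056 (App, males) and −0.0026 (Adam10, females), no filter −0.0019 (Adam10, females), 1 fit of the 4 groups −0.0085 (Adam10) and −0.0027 (Ncstn) in females, and the choroid plexus covariate −0.021 (Ncstn, females). With RLE normalization, the mean differences in the exact tests were −0.0033 (Apoe, both sexes) and −0.011 (App, males). The cause was not tested.

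With a sample left out, both signs occurred for Apoe (−0.038 to 0.046), Bace1 (−0.036 to 0.0022), Clu (−0.032 to 0.057) and Mapt (−0.051 to 0.0018) with both sexes, for Aph1a (−0.022 to 0.20), Aph1b (−0.018 to 0.16), App (−0.049 to 0.013) and Mapt (−0.0032 to 0.043) in males, for Adam10 (−0.041 to 0.036), Aph1a (−0.077 to 0.16), Aph1c (−0.040 to 0.20), Bace1 (−0.011 to 0.065) and Ncstn (−0.068 to 0.052) in females, for Aph1a (−0.077 to 0.15) and Psen2 (−0.0088 to 0.11) for the interaction, for Ncstn between the sexes (−0.049 to 0.017), and for the log2 ratios of Aph1a to Ncstn in females (−0.025 to 0.12), Clu to Apoe in males (−0.095 to 0.055) and Psen2 to Ncstn in males (−0.044 to 0.0054).

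Same-numbered samples did not pair: over 30 such pairs, the correlation of deviations was −0.42 to 0.28, with 10 over 0.1, and 6 of 20 samples correlated best with their own number. With a replicate block, 0 of 9 members passed for nPM with both sexes, in males, in females and for the interaction, 2 of 9 passed between the sexes, and Psen2 differed by −0.16 with nPM over both sexes.

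With 5 samples per group, the widest intervals within a sex reached folds of 0.744 (Psen2) and 1.36 (Aph1a), and those of the other members were narrower. The lowest Psen2 sample had 133 counts. Age and length slope coincide with sex, and some samples shared a litter. Whether the EdU injections also coincide with sex is not clear from the methods.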

Other observations

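The log2 ratio of Aph1a to Ncstn, subunits of the same complex, fell into 2 ranges among the 20 samples, which was noticed after the values were seen. It was between −1.34 and −1.11 in 10 samples and between −0.82 and −0.67 in the other 10, with a gap of 0.29. The upper range held 4 nPM males and 2 samples of each of the other 3 groups, so that both ranges were present in every group. The largest gaps in the ratios of Psen2 to Ncstn (0.14), Clu to Apoe (0.17) and Bace1 to Adam10 (0.063) set apart 2, 1 and 1 samples at the low end. No test was made of the split in Aph1a, and the correlation of Aph1a with its overlapping neighbour Car14 is given above.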
